A study of Mus musculus with 20 samples.

Results

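Transcripts of the metallothioneins and of zinc handling were followed in mouse keratinocytes through 5 genes: Mt1, Mt2, Mt4, Mtf1 and Slc30a1. They were the rows carrying these gene names among the 25719 genes of the deposited table, and all 5 passed the filter on low counts that left 12424 genes for testing. The cells came from ear and dorsal skin by flow sorting, from 20 mice in 4 groups of 5, and their bulk RNA was sequenced. The conditional knockout (cKO) was K14-CreERTam x Cyp11b1 L2/L2, in which tamoxifen activates a Cre recombinase driven by the Krt14 promoter of basal keratinocytes, and the controls were Cre-negative Cyp11b1 L2/L2 littermates. Cyp11b1 encodes the enzyme of the last step to corticosterone, and the study compared its loss after local and after systemic induction. All 20 mice, controls included, carried the floxed alleles and received tamoxifen on 5 days, and cells were taken on day 6. In the topical groups tamoxifen in ethanol was put on the ear (20 µl) and the shaved back (100 µl), and in the systemic groups it was injected into the peritoneum (100 µl of 10 mg/ml) in oil and ethanol. Route, vehicle and shaving therefore changed together and cannot be told apart. The age of the mice is not given in the sources used here.

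Metallothioneins are small cysteine-rich proteins that bind zinc, copper and cadmium. When free zinc in a cell rises, the zinc-finger protein encoded by Mtf1 binds short sequences called metal response elements and activates Mt1, Mt2 and the zinc exporter gene Slc30a1. Mt1 and Mt2 also respond to glucocorticoids through the glucocorticoid receptor, while Slc30a1 is known as a zinc-responsive gene. Mt4 is the family member of stratified squamous epithelium and is found in its differentiating layers.

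In the GRCm38 genome (GENCODE M21 annotation, all genes on the + strand) the 4 metallothionein genes formed 1 cluster. Mt4 (ENSMUSG00000031757) lies at chr8:94137197-94139031, Mt3 (ENSMUSG00000031760) at chr8:94152607-94154146, Mt2 (ENSMUSG00000031762) at chr8:94172664-94173568 and Mt1 (ENSMUSG00000031765) at chr8:94179082-94180327. Each has 3 exons, and 5513 bp separate Mt2 from Mt1. Mtf1 (ENSMUSG00000028890), with 11 exons, lies at chr4:124802104-124849800, and Slc30a1 (ENSMUSG00000037434), with 2, at chr1:191906767-191913247. The coding sequences of Mt1 and Mt2 are 79.2% identical, against 65.05% for Mt1 and Mt4 and 71.5% for Mt2 and Mt4. No stretch of 50 bases in the first listed transcript of any of the 5 genes occurred in a transcript of another gene.

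Promoter sequences are shown because the metal response element is what ties Mt1, Mt2 and Slc30a1 to Mtf1. Each line runs 5' to 3' over 280 bases, from 250 bases before the RefSeq start site to 30 bases into the transcript (RefSeq, GRCm38.p6), and capitals mark every match to the core of the element, TGCACNC or TGCGCNC, on either strand.
Mt1 (chr8:94178839-94179118, + strand): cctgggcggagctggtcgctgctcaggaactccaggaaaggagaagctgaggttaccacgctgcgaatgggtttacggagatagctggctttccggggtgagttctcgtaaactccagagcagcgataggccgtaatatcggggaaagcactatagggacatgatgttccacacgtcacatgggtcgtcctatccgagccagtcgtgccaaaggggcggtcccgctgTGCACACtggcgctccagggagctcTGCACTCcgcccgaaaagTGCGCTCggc
Mt2 (chr8:94172368-94172647, + strand): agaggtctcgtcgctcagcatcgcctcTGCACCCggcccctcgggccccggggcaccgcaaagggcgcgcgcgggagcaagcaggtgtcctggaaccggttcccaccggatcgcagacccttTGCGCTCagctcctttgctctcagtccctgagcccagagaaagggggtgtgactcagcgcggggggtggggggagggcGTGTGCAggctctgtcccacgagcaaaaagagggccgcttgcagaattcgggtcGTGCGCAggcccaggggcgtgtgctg
Mt4 (chr8:94136954-94137233, + strand): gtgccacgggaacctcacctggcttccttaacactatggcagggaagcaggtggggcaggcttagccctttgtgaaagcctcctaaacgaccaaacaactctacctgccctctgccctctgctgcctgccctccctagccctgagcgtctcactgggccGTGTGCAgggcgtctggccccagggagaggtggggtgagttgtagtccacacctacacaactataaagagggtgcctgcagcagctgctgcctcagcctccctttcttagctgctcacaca
Slc30a1 (chr1:191906531-191906810, + strand): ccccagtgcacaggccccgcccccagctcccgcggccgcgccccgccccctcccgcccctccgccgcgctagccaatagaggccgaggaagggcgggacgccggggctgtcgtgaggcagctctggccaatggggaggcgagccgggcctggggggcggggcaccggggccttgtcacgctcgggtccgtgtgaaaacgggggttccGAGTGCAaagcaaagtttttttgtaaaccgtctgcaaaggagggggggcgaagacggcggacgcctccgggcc

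The search covered the full RefSeq window of 300 bases, which runs to 50 bases after the start. Positions are those of the first base of a match, with -1 just before the start site and 1 at it. Mt2 had 4 matches, at -223, -128, -50 and 5, and Mt1 had 3, at -23, 3 and 21. Slc30a1 had 2, at -43 and 31, and Mt4 had 1, at -91. Mtf1 had none in its window at chr4:124802299-124802598. Of 32817 mouse promoters of this length, 25.7% had at least 1 match, 7.12% at least 2, 1.97% at least 3 and 0.518% at least 4.

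The letters TATAAA, on either strand, were in 13.6% of promoters and, of the 5 genes, in the window of Mt4, at -30. In Mt1 and Mt2 they came later, at bases 129 and 90 of the first listed GENCODE transcript. The RefSeq windows of Mt1 and Mt2 therefore lie upstream of these letters, and the counts and positions of matches hold for those windows and may miss sequence next to a start site farther downstream. Within the first 200 bases of that transcript Mt1 had 4 core matches of the metal response element and Mt2 had 3, some of them already counted in the promoter windows. Of 48490 transcripts searched in this way, 0.0722% had at least 4 and 0.431% at least 3. The palindromic glucocorticoid response element, AGAACA, any 3 bases and then the reverse complement of AGAACA, was in none of the 5 windows and in 0.00914% of promoters. Its single arm AGAACA was in the Mtf1 window and in 18.97% of promoters. The antioxidant response element core TGACNNNGC was in the windows of Mt2 and Slc30a1 and in 12.4% of promoters. AGAACA is part of the palindrome, and in the 5 windows no match to the antioxidant element overlapped one to the metal response element. All motifs were searched on both strands, and a match describes letters, not binding.

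**Figure D1:**
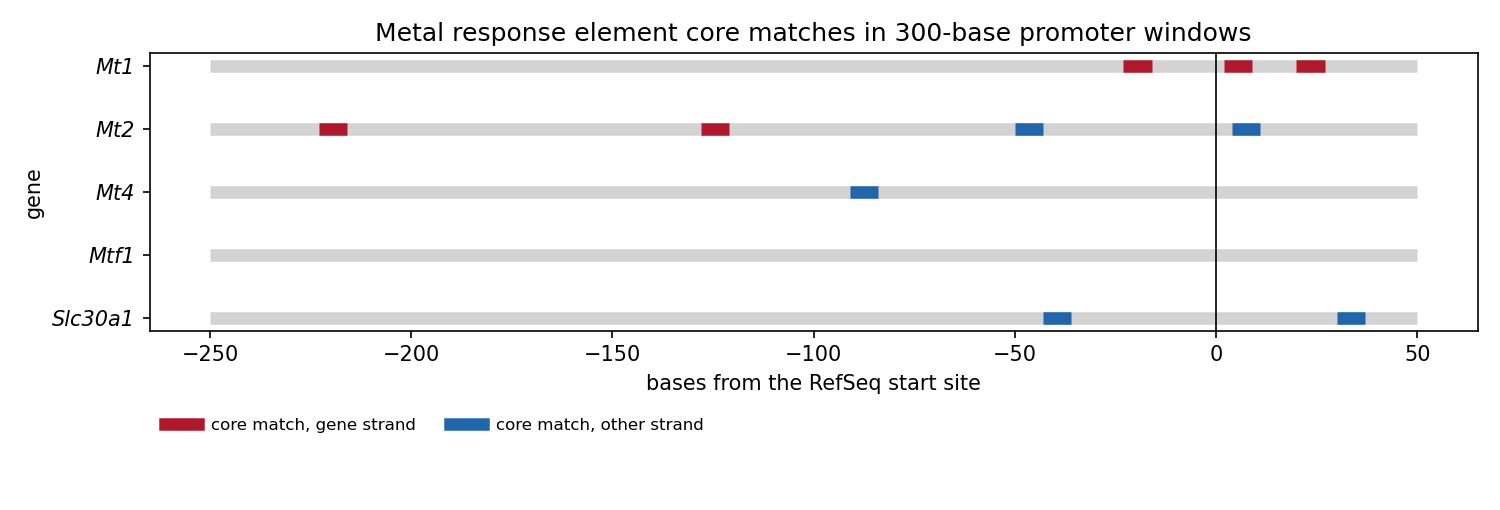
Core matches to the metal response element (blocks, red on the strand of the gene and blue on the other strand) in the 300-base promoter windows of the 5 genes, with the distance from the RefSeq start site in bases on the x axis. Mt2 carries 4 matches, Mt1 3, Slc30a1 2, Mt4 1 and Mtf1 none.

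The libraries held 11.6 to 50.1 M counts. Keratinocyte markers summed over 8 genes reached 77929 to 110235 CPM (counts scaled to a common library total), while summed markers of fibroblasts, endothelium, melanocytes, muscle, erythroid cells and immune cells of the epidermis each stayed at 35.0 CPM or less in every library. In bulk RNA, fewer cells of a type and less RNA per cell cannot be told apart. Cyp11b1 had 7 and 9 reads in all in topical cKO and control and 4 and 2 in systemic cKO and control, so its loss was not detectable at this depth and the deleted gene gives no check of the labels. Summed transcripts of 12 satellite-like predicted genes exceeded 50 CPM in 6 libraries, all 5 systemic controls (79.4 to 11674) and systemic cKO 2 (37287), and reached at most 42.5 in the other 14. This signal moves with the systemic genotype effect and with the route effect in controls, and its part in them was not tested beyond the fits that carry it as a term.

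Mt1 and Mt2 were among the most abundant transcripts of these cells, and Mt4 stood far above the sensor and the exporter. Per kilobase of transcript, the scale on which genes can be compared, the mean level over 20 libraries was 5019 CPM per kb for Mt1, 3358 for Mt2, 759.7 for Mt4, 0.926 for Mtf1 and 0.391 for Slc30a1. Within a library each gene exceeded the next in this order in 20 of 20 libraries, with the closest ratio at 1.23 for Mt1 over Mt2, 1.15 for Mt2 over Mt4, 217.1 for Mt4 over Mtf1 and 1.15 for Mtf1 over Slc30a1. Between libraries the ranges of Mt1 and Mt2, of Mt2 and Mt4 and of Mtf1 and Slc30a1 overlapped. Mt1 and Mt2 together took 0.147% to 0.628% of all counts in a library.

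**Figure D2:**
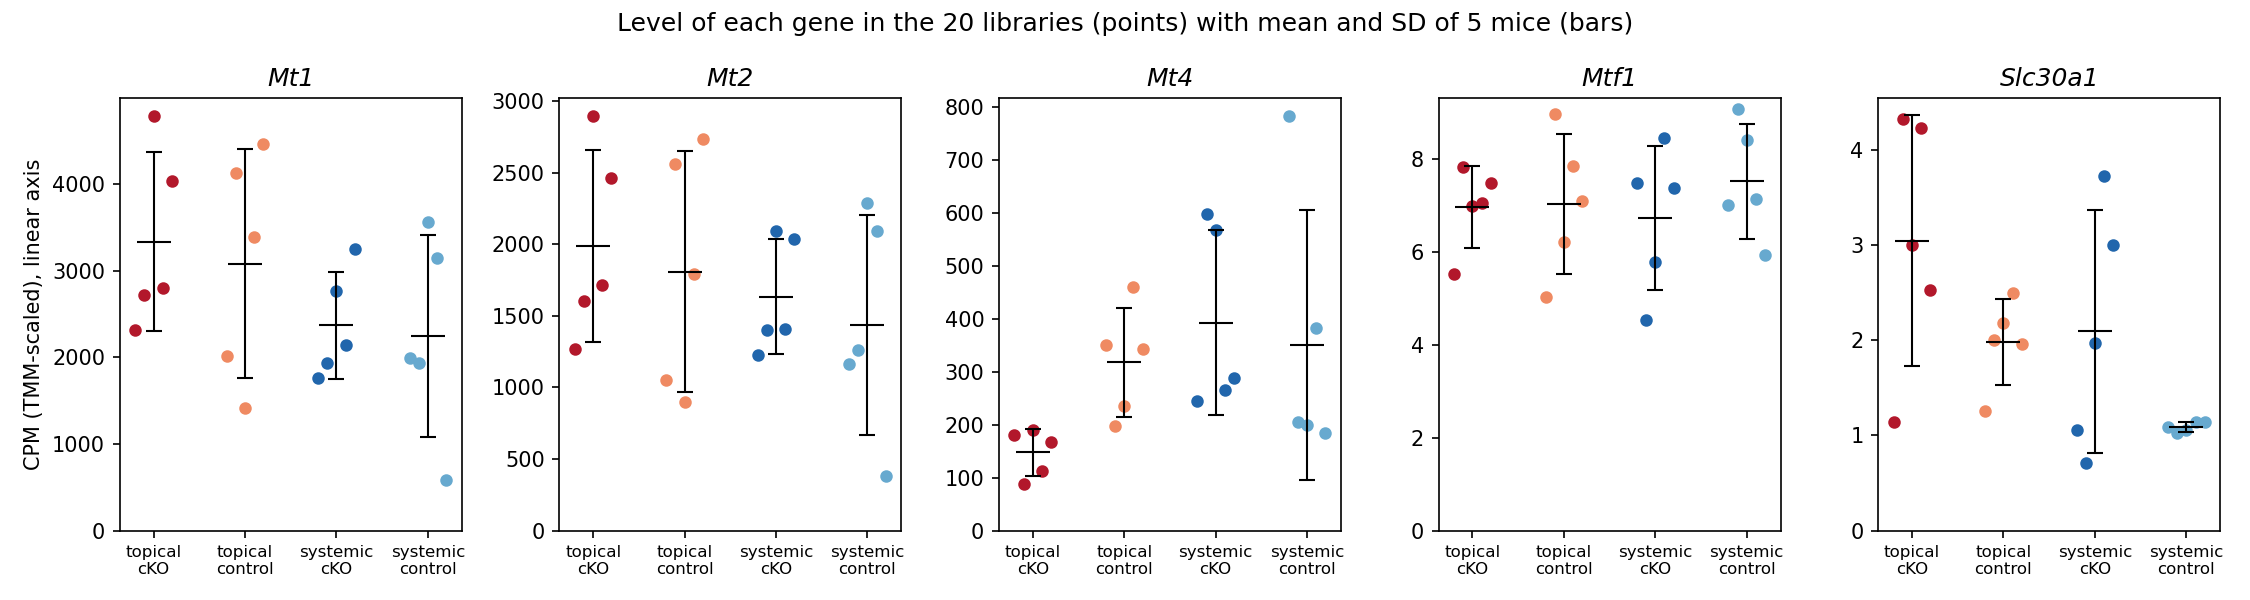
Level of each of the 5 genes in the 20 libraries, in CPM with TMM scaling on linear axes that start at 0; points are mice and black bars the mean and SD of 5. Mt4 in topical cKO (88.7 to 190.7 CPM) lies below every library of topical control and systemic cKO, and Slc30a1 in systemic control is closely spaced between 1.02 and 1.14 CPM.

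Mt1, the main zinc-binding metallothionein of most tissues beside Mt2, did not part the groups. In topical cKO it stood at 2318, 2720, 4781, 2802 and 4031 CPM (replicates 2, 3, 4, 5 and 7, with CPM of single genes scaled by TMM factors here and below). In topical control it stood at 2011, 4124, 1416, 3391 and 4460 CPM (replicates 1, 3, 5, 6 and 7). High and low mice occurred in both genotypes, and the ranges overlapped. In systemic cKO the values were 1763, 1927, 2762, 2144 and 3243 CPM (replicates 2, 4, 5, 6 and 7). In systemic control they were 1996, 1932, 3563, 3146 and 585.5 CPM (replicates 1, 3, 4, 5 and 6). Systemic control 6 was the lowest library of all, and the ranges of the genotypes overlapped here too.

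No difference in Mt1 between cKO and control passed the test by either route. Group means were 3330 ± 1033 CPM in topical cKO and 3080 ± 1323 in topical control (SD, n = 5), which differed by 0.11 on the log2 scale (SE 0.38, adjusted p = 0.997, edgeR's quasi-likelihood test with Benjamini-Hochberg adjustment over 12424 genes). The 95% interval of the fold ran from 0.625 to 1.87. After systemic treatment the means were 2368 ± 619 CPM in cKO and 2244 ± 1169 in control, a log2 difference of 0.077 (SE 0.38, adjusted p = 0.950, edgeR), with an interval of the fold from 0.610 to 1.83. It was -0.35 with satellite-like signal over 50 CPM as a term. With 5 mice a group, changes in either direction within the 2 intervals of the fold remain possible, and the smallest detectable change was not computed. The genotype effect differed between routes by -0.035 on the log2 scale (SE 0.54, adjusted p = 0.986, edgeR), and its sign differed between settings.

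Mt2, the close neighbour of Mt1 with the same metal-binding role, showed the same picture. Its levels were 1265, 1603, 2896, 1713 and 2463 CPM in topical cKO and 1049, 2562, 899.0, 1792 and 2734 in topical control, in the replicate order given for Mt1. They were 1226, 1403, 2091, 1406 and 2036 CPM in systemic cKO and 1160, 1261, 2286, 2093 and 383.0 in systemic control. The same mice were high or low as for Mt1, and the genotypes overlapped by both routes. The log2 fold change of cKO against control was 0.14 (SE 0.39, adjusted p = 0.997) after topical and 0.18 (SE 0.39, adjusted p = 0.880) after systemic treatment by edgeR's test. The 95% intervals of the fold ran from 0.630 to 1.92 and from 0.651 to 1.98. The systemic estimate was -0.23 with satellite-like signal over 50 CPM as a term.

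The route of tamoxifen did not separate Mt1 or Mt2 beyond the spread between mice. Systemic against topical treatment gave Mt1 log2 fold changes of -0.46 (SE 0.38, adjusted p = 0.433) in controls and -0.49 (SE 0.38, adjusted p = 0.476) in cKO by edgeR's test. For Mt2 they were -0.33 (SE 0.39, adjusted p = 0.586) and -0.28 (SE 0.39, adjusted p = 0.714). Without systemic control 6, whose satellite-like signal was 8412 CPM, the route difference in controls was -0.21 for Mt1 and -0.088 for Mt2.

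Across libraries Mt1 and Mt2 moved together. On log2(CPM + 1) over 20 libraries their Pearson correlation was 0.980 (Spearman 0.947), and 0.989 after each group's mean was subtracted. It was 0.986 in the 10 topical and 0.990 in the 10 systemic libraries, and 0.951 without the 2 libraries farthest from the median. Mt1 correlated with Mtf1 at 0.39, with Slc30a1 at 0.38 and with Mt4 at -0.032. With group means subtracted these became 0.49, 0.18 and 0.24, and without the 2 farthest libraries 0.32, 0.42 and -0.25, so the sign for Mt4 was not stable. These are descriptions over libraries that share groups, depth and processing, and the mitochondrial share of counts correlated with Mt1 at -0.41.

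**Figure D3:**
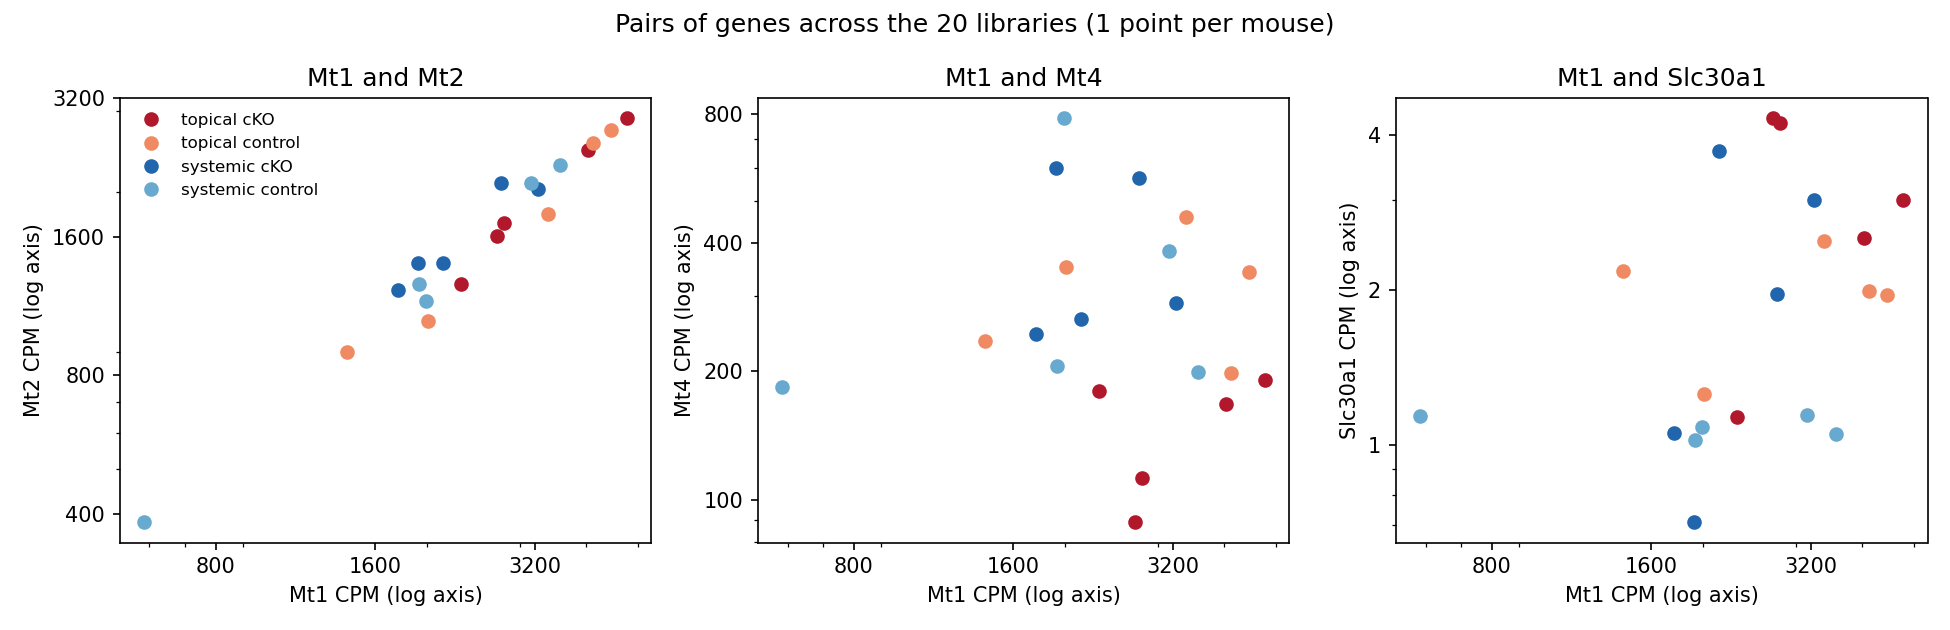
Pairs of genes across the 20 libraries on log axes in CPM, with 1 point per mouse and 1 colour per group. Mt2 follows Mt1 along a line (r = 0.980), whereas Mt4 (r = -0.032) and Slc30a1 (r = 0.38) scatter widely at any level of Mt1.

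The balance between Mt1 and Mt2 varied within narrower bounds. There were 1.32 to 1.92 Mt1 counts for each Mt2 count, a ratio that library scaling does not touch. Its group means were 1.69 ± 0.0832 in topical cKO, 1.72 ± 0.165 in topical control, 1.45 ± 0.110 in systemic cKO and 1.57 ± 0.0868 in systemic control (SD, n = 5). In cKO the 5 systemic libraries (1.32 to 1.59) all lay below the 5 topical ones (1.64 to 1.83). In controls the routes overlapped, at 1.503 to 1.72 and 1.57 to 1.92, and so did the genotypes of each route. The ratio was described without a test, and the share of gene pairs whose ratio parts these groups was not computed. Of single genes in cKO, 4.07% lay higher and 3.32% lower in systemic than in topical libraries without overlap.

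In the fit of all 20 libraries Mt4 was the only gene of the 5 with a call in any of the 5 comparisons, and that call was between routes within the knockouts. In topical cKO, Mt4 stood at 180.0, 88.7, 190.7, 112.6 and 167.9 CPM (replicates 2, 3, 4, 5 and 7). In systemic cKO it stood at 244.2, 598.9, 567.8, 265.4 and 288.7 CPM (replicates 2, 4, 5, 6 and 7). Every systemic knockout lay above every topical one. Mt4 was 2.66-fold higher in systemic cKO (393.0 ± 175 CPM) than in topical cKO (148.0 ± 44.8 CPM, SD, n = 5), with a 95% interval of 1.52 to 4.64 and a log2 difference of 1.41 (SE 0.39, adjusted p = 0.0238, edgeR). Of all genes tested in this comparison 9.22% were called, 5.19% as higher, and 4.07% had non-overlapping higher levels in systemic cKO; the call of 1 gene of 5 is read against these shares.

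The Mt4 difference between routes in cKO passed the test in 11 of 11 other settings of scaling, tool, filter, block and covariates, at log2 fold changes from 1.08 to 1.54. It did not pass when topical cKO 3 (adjusted p = 0.0590), topical cKO 5 (adjusted p = 0.0694), systemic cKO 4 (adjusted p = 0.0548) or systemic cKO 5 (adjusted p = 0.0684) was left out, all by edgeR, with estimates from 1.21 to 1.54 over the 10 fits that leave out 1 library. With library totals in place of TMM scaling the ranges stayed apart, at 239.5 to 507.7 CPM in systemic and 109.5 to 177.7 in topical cKO. Summed dissociation response genes (Fos, Jun and other early genes that sorting can induce) also parted the routes, at 37259 to 56949 CPM in the systemic and 23186 to 31639 in the topical libraries, and their part in the Mt4 difference was not tested. Of the 8 keratinocyte markers, 0 were called by edgeR between routes in cKO, with 1 at an unadjusted p under 0.05 and a median log2 difference of 0.34. The suprabasal Krt1 and Krt10 were at 0.32 (adjusted p = 0.692) and 0.39 (adjusted p = 0.443). Of the basal markers, Krt14 (-0.63, adjusted p = 0.241) and Krt5 (-0.22, adjusted p = 0.652) lay on the other side of 0 from Trp63 (0.37, adjusted p = 0.297).

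Markers of other cells also moved between routes in cKO, at low levels. The 4 tested fibroblast genes had a median log2 difference of -1.26 and the 4 tested endothelial genes of -1.07, all 8 lower in systemic cKO and none called by edgeR (1 of each list at an unadjusted p under 0.05). Fibroblast sums were 3.17 to 32.0 CPM over 6 genes in topical and 2.77 to 6.56 in systemic cKO, and endothelial sums 0.840 to 6.60 and 0.879 to 2.93 over 4 genes. Of the 5 erythroid genes Hba-a1, a hemoglobin gene, passed the filter and was called higher in systemic cKO, by 2.71 (adjusted p = 5.22e-05, edgeR). Erythroid sums were 0.889 to 2.04 CPM in topical and 3.45 to 7.25 in systemic cKO, and were mostly Hba-a1 (means 0.822 and 5.18 CPM). Of the untested erythroid genes, Hba-a2 was also higher in systemic cKO (0.235 and 0.549 CPM in topical and systemic cKO). Hbb-bs (0.151 and 0.0976), Alas2 (0.140 and 0.0420) and Hbb-bt (0.0754 and 0) were lower there. Immune sums over 8 genes were 6.23 to 11.7 CPM in topical and 14.8 to 31.7 in systemic cKO. Their 1 tested gene, Cd74, was higher in systemic cKO by 0.93. Muscle sums over 4 genes were 1.89 to 6.72 and 0.949 to 2.91 CPM, with the 1 tested gene, Acta1, lower by 1.09. Each had an unadjusted p under 0.05 and neither was called by edgeR. The 3 tested melanocyte genes had a median of 0.22, with 0 called. The part of all these markers of other cells in the Mt4 difference was not tested.

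Within the topical groups, Mt4 was lower in the knockouts without overlap but did not pass the test. Topical control had 351.4, 198.5, 235.5, 460.3 and 342.6 CPM (replicates 1, 3, 5, 6 and 7), all above the topical cKO maximum of 190.7. The log2 fold change of cKO against control was -1.10 (SE 0.38, unadjusted p = 0.00903, adjusted p = 0.751, edgeR), with a 95% interval of the fold from 0.268 to 0.810. Only 0.129% of genes were called in this comparison, none of them lower in cKO, and 0.555% had all knockouts below all controls. With library totals alone the ranges met, at 109.5 to 177.7 CPM in cKO and 170.7 to 497.9 in control. The estimate ran from -1.23 to -0.93 over the 10 fits that leave out 1 library. Beside it stood the suprabasal keratins Krt1, at 4402 CPM in cKO and 8251 in control (log2 difference -0.91, adjusted p = 0.842), and Krt10, at 11202 and 15091 CPM (-0.43, adjusted p = 0.976). The basal Krt14 (0.30), Krt5 (0.22) and Trp63 (0.011) were not lower, and 0 of 8 keratinocyte markers were called by edgeR, with 1 at an unadjusted p under 0.05. The 4 tested fibroblast genes had a median of 1.35, with 0 called by edgeR and 2 at an unadjusted p under 0.05. The part of these markers in the Mt4 difference was not tested.

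Systemic treatment gave no such pattern for Mt4. Systemic control had 782.8, 205.6, 199.5, 382.3 and 183.7 CPM (replicates 1, 3, 4, 5 and 6), with replicate 1 far above the rest, and these values enclosed those of systemic cKO. The log2 fold change of cKO against control was 0.16 (SE 0.38, adjusted p = 0.891, edgeR), and that of systemic against topical controls was 0.14 (SE 0.38, adjusted p = 0.822, edgeR). Without systemic control 1 the latter was -0.39 and the former 0.70, and with satellite-like signal over 50 CPM as a term the former was -0.52. The genotype effect differed between routes by 1.27 (SE 0.54, unadjusted p = 0.0283, adjusted p = 0.289, edgeR), in a comparison that called 0.25% of genes. It was 1.80 (adjusted p = 0.0540) without systemic control 1, and the difference was not called in any fit run.

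Mt3, the family member best known from the brain, was barely detected. It had 0 to 10 counts per library and at least 1 count in 14 of 20 libraries, and it did not pass the filter. An exact two-sided permutation test of log2(CPM + 1) gave p = 0.817 for topical and p = 0.548 for systemic cKO against control.

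**Figure D4:**
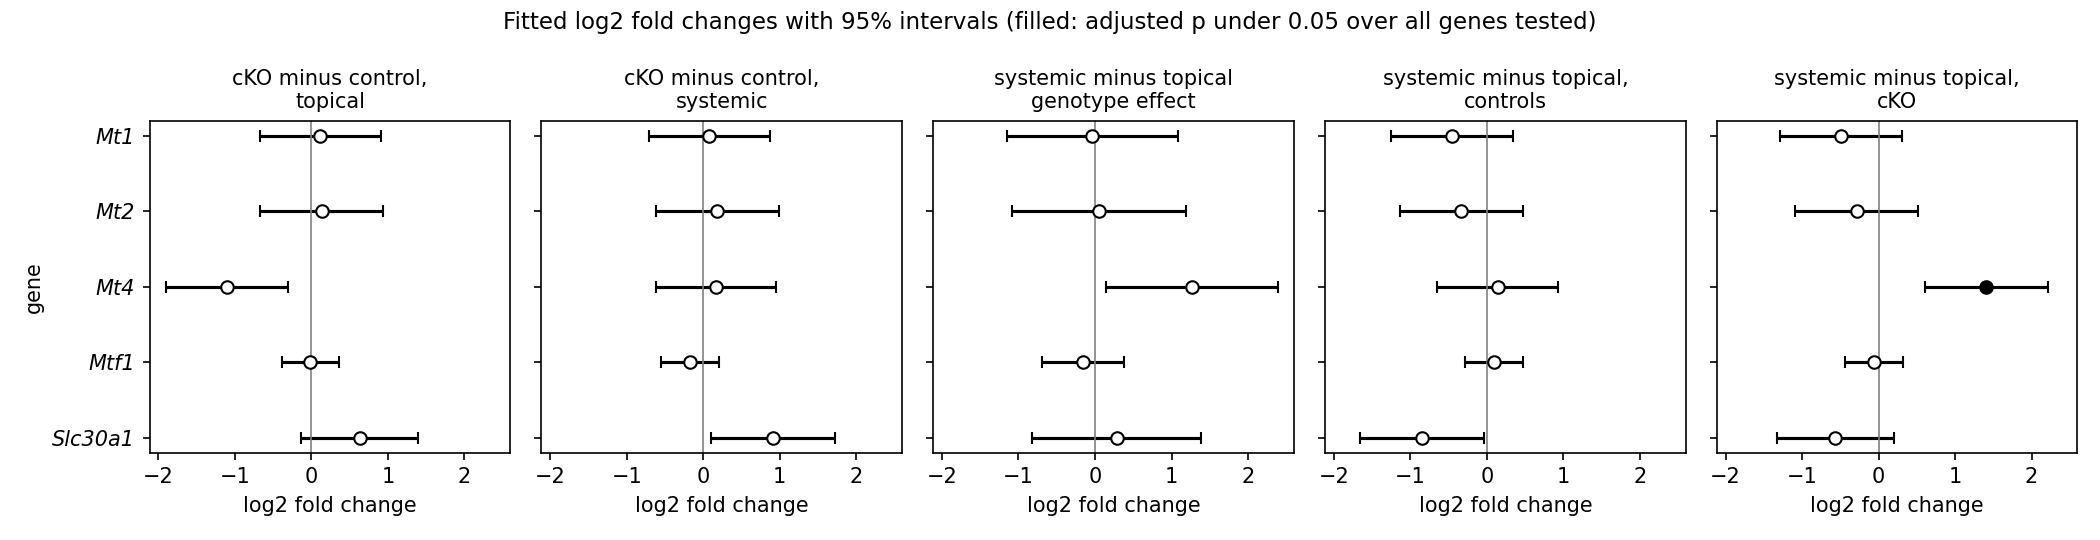
Fitted log2 fold changes (points) with 95% intervals (bars) for the 5 genes in the 5 comparisons; a filled point has an adjusted p under 0.05 over all genes tested. The filled point is Mt4 in systemic against topical cKO (1.41), and the intervals of Mtf1 are the narrowest.

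Mtf1, the zinc sensor, was the steadiest of the 5 genes. In topical cKO it stood at 5.52, 7.83, 6.997, 7.07 and 7.49 CPM and in topical control at 5.04, 8.99, 6.21, 7.85 and 7.09, in the replicate order given for Mt1. In systemic cKO it stood at 7.48, 4.55, 5.79, 8.47 and 7.37 CPM and in systemic control at 7.02, 9.10, 8.42, 7.15 and 5.94. All groups overlapped, with means of 6.98 ± 0.884, 7.04 ± 1.51, 6.73 ± 1.55 and 7.53 ± 1.24 CPM in that order of groups (SD, n = 5). These levels rest on 85 to 277 counts per library. Log2 fold changes ranged from -0.17 (SE 0.18, adjusted p = 0.725), for systemic cKO against control, to 0.094 (SE 0.18, adjusted p = 0.751), for route in controls, by edgeR's test. The topical difference was -0.014 (SE 0.18), with a 95% interval of the fold from 0.763 to 1.29, and its sign turned to 0.031 with library totals alone.

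Slc30a1, which exports zinc across the plasma membrane, was scarce, and its means were higher in cKO by both routes without a call. In topical cKO it stood at 1.14, 4.32, 2.999, 4.23 and 2.53 CPM (replicates 2, 3, 4, 5 and 7) and in topical control at 1.26, 2.00, 2.18, 2.50 and 1.96 (replicates 1, 3, 5, 6 and 7). All knockouts but replicate 2 were above the control maximum, so the ranges overlapped, and with library totals alone 2 of 5 knockouts were above it. The means were 3.04 ± 1.32 and 1.98 ± 0.455 CPM (SD, n = 5), with a log2 difference of 0.63 (SE 0.37, unadjusted p = 0.1005, adjusted p = 0.945, edgeR). In systemic cKO it stood at 1.06, 0.709, 1.97, 3.73 and 2.999 CPM (replicates 2, 4, 5, 6 and 7) and in systemic control at 1.08, 1.02, 1.05, 1.14 and 1.14 (replicates 1, 3, 4, 5 and 6). The first 2 knockouts were at or under the control level and the other 3 above it.

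The systemic means were 2.09 ± 1.28 and 1.09 ± 0.0533 CPM (SD, n = 5), a log2 difference of 0.92 (SE 0.39, unadjusted p = 0.0283, adjusted p = 0.256, edgeR) in a comparison that called 1.89% of genes. The close spacing of the controls was narrower than their own counting error: systemic control 4 had 16 reads, with an exact 95% Poisson interval of 9.15 to 26.0. The estimate was 0.61 without systemic cKO 6, and it was -0.046 with satellite-like signal over 50 CPM as a term, which is nearly the same split as systemic control against the rest. Over all 20 libraries Slc30a1 rested on 12 to 166 reads. Its level correlated with the mitochondrial share of counts at 0.49 and with the dissociation genes at -0.51. With mitochondrial share as a term the estimates were 0.42 after topical and 0.70 after systemic treatment. The genotype effect differed between routes by 0.28 (SE 0.53, adjusted p = 0.858, edgeR).

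Between routes, Slc30a1 was lower in systemic than in topical controls without overlap, yet without a call. The log2 fold change was -0.85 (SE 0.39, unadjusted p = 0.0410, adjusted p = 0.134, edgeR), while 18.3% of genes were called in this comparison and 6.26% had systemic controls all below topical ones. With library totals alone the ranges overlapped, at 0.910 to 1.73 CPM in systemic and 1.33 to 2.70 in topical controls. A fit of the 10 control libraries alone gave -0.84 with an adjusted p of 0.0256 (edgeR), and the estimate was 0.26 with satellite-like signal over 50 CPM as a term. In cKO the route difference was -0.57 (SE 0.37, adjusted p = 0.378, edgeR).

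**Figure D5:**
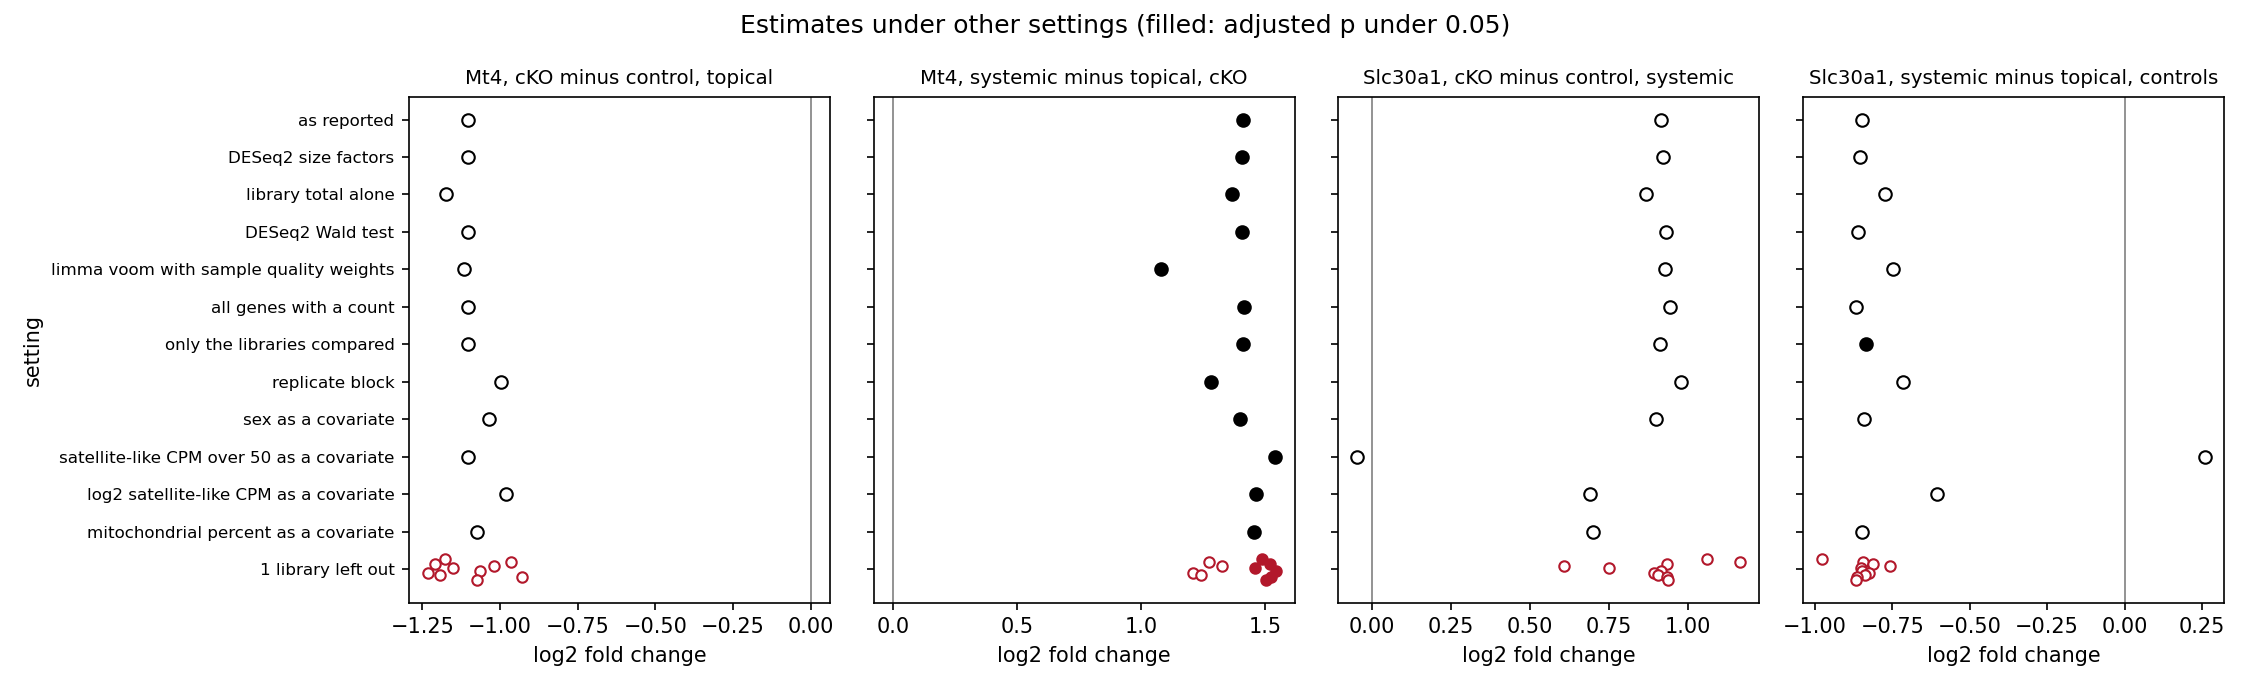
Log2 fold changes of Mt4 and Slc30a1 under each setting tried (rows; black) and in the 10 fits that each leave out 1 library (bottom row; red); a filled point has an adjusted p under 0.05. The Mt4 route difference in cKO stays between 1.08 and 1.54, and the Slc30a1 estimates cross 0 with satellite-like signal over 50 CPM as a term.

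Counted together, 0 of the 5 genes were called by edgeR in either genotype comparison, and 1 of 5 had an unadjusted p under 0.05 in each, Mt4 after topical and Slc30a1 after systemic treatment. DESeq2 and limma voom also called 0 of 5 in both. The backgrounds are 5.66% of all genes at an unadjusted p under 0.05 in the topical and 15.3% in the systemic comparison. The median log2 fold change of the 5 was 0.11 in the topical comparison, against 0.020 over all genes, and 0.16 in the systemic one, against -0.0045. The 2 genotype comparisons use different control mice.

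Of the zinc transporters that share the exporter's family, 6 of 10 Slc30 genes passed the filter and 0 were called by edgeR in any of the 5 comparisons in the fit of all 20 libraries (Slc30a1 was called by route in the fit of control libraries alone, as given), with 0 and 1 at an unadjusted p under 0.05 in the topical and systemic genotype comparisons. The 2 largest genotype differences after systemic treatment were those of Slc30a1 and of Slc30a4, which moves zinc into vesicles, at 0.92 and 0.51 on the log2 scale (adjusted p = 0.256 and 0.401). Of the 14 Slc39 genes, whose products bring zinc into the cytosol, 12 passed the filter. Slc39a13, a carrier of intracellular membranes, fell by 0.52 on the log2 scale in systemic cKO against control (SE 0.13, adjusted p = 0.0390, edgeR), from 13.1 to 9.12 CPM. It was higher in systemic than topical controls by 0.59 (SE 0.13, adjusted p = 0.00393), and the genotype effect differed between routes by -0.86 (SE 0.18, adjusted p = 0.0499, edgeR). These 3 comparisons share the systemic controls, the libraries with satellite-like signal, and none of the 3 calls held with either satellite term. The systemic call of Slc39a13 was made in 5 of 11 other settings, and the replicate block (adjusted p = 0.101) and library totals alone (adjusted p = 0.382) were among those without it. The difference between routes was called in 4 of 10, and not with the replicate block (adjusted p = 0.134). They were called in 2 of 10 and 5 of 20 fits that leave out 1 library. In the systemic genotype comparison the 3 tested melanocyte genes had a median of -0.86 and Hba-a1 was at 1.10, with 0 called by edgeR. By route in controls Pmel, a melanocyte gene (0.77, adjusted p = 0.0142), and Hba-a1 (1.02, adjusted p = 0.0399, edgeR) were called higher. The part of these markers in the Slc39a13 differences was not tested. Slc39a8, a zinc importer of the plasma membrane, fell with systemic against topical treatment by 1.27 in controls (SE 0.31, adjusted p = 0.00703) and by 1.14 in cKO (SE 0.31, adjusted p = 0.0202, edgeR). In cKO its levels in the 2 routes did not overlap, as for 3.32% of all genes in that direction. The call in controls was lost with either satellite term, and that in cKO without topical cKO 7, without systemic cKO 5 or with all genes kept (adjusted p = 0.0502). In the main fit the other 10 tested Slc39 genes were not called in any comparison. Of the 12 tested, 1 was called in the systemic genotype comparison and 1 for the difference between routes, against 1.89% and 0.25% of all genes. By route 2 were called in controls and 1 in cKO, against 18.3% and 9.22% of all genes, and the calls are read against these shares.

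Glucocorticoid-induced genes were read beside Mt1 and Mt2, which share that hormone response. All 14 listed genes were tested and 0 were called in the main edgeR test of either genotype comparison. At an unadjusted p under 0.05 there were 0 and 2 after topical and systemic treatment, against 5.66% and 15.3% of all genes. DESeq2 called 0 and 1, voom 0 in both, and edgeR with the replicate block 0 and 1. Their median log2 fold change was 0.26 after topical and 0.073 after systemic treatment, against 0.020 and -0.0045 over all genes. The 2 largest differences after systemic treatment, both outside the threshold, were 1.17 for Ddit4 (adjusted p = 0.107) and 0.65 for Tsc22d3, which encodes a glucocorticoid-induced leucine zipper protein (adjusted p = 0.237). By route in controls 3 of 14 were called by edgeR, against 18.3% of all genes, while DESeq2 and voom each called 5. Per1, a clock gene that glucocorticoids induce, rose by 0.99 (adjusted p = 0.0219), while Fkbp5, a cochaperone of the glucocorticoid receptor, fell by 1.39 (adjusted p = 0.0275) and Ddit4, an inhibitor of mTOR signalling, fell by 1.20 (adjusted p = 0.0286, edgeR). None of the 3 calls held with either satellite term. With satellite-like signal over 50 CPM as a term Fkbp5 turned to 1.10 and Ddit4 to 0.15. Library totals alone also ended the calls of Fkbp5 and Ddit4. That of Ddit4 was lost as well with all genes kept and in a fit of the control libraries alone. Leaving out 1 library ended the call of Per1 in 2, of Fkbp5 in 4 and of Ddit4 in 5 of 10 fits. By route in cKO 0 of 14 were called by edgeR and 2 had an unadjusted p under 0.05, while DESeq2 called 2 and voom 1.

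Genes of metal and oxidative stress other than the metallothioneins gave 0 calls of 10 in the main edgeR test of each genotype comparison. At an unadjusted p under 0.05 there were 1 and 2 (5.66% and 15.3% of all genes), and DESeq2 and voom also called 0. Between routes 4 of 10 were called in controls and 3 of 10 in cKO, against 18.3% and 9.22% of all genes. Dnajb1, a heat shock cochaperone, rose with systemic treatment by 1.79 in controls (adjusted p = 0.000713) and 1.82 in cKO (adjusted p = 0.000802), and Hspa1a, an inducible heat shock protein gene, by 0.91 in controls (adjusted p = 0.0454). Hmox1, the heme-degrading enzyme, fell by 1.05 in controls (adjusted p = 0.00429) and by 0.999 in cKO (adjusted p = 0.00769). Nqo1, a quinone reductase, fell by 0.63 (adjusted p = 0.0352) and by 0.76 (adjusted p = 0.0196, all by edgeR). With satellite-like signal over 50 CPM as a term none of the 4 calls in controls held, and with its log2 value the call of Dnajb1 alone did. Library totals alone also ended the calls of Hmox1, Nqo1 and Hspa1a in controls. That of Hspa1a was lost as well with all genes kept and in a fit of the control libraries alone. In cKO, library totals alone ended the calls of Hmox1 and Nqo1, and a fit of the cKO libraries alone that of Nqo1. Leaving out 1 library ended the call of Hspa1a in 7 and of Nqo1 in 6 of 10 fits in controls and of Nqo1 in 2 of 10 in cKO. Mt1 and Mt2 were called in neither route comparison. The summed level of the 10 genes was 3049 to 6076 CPM in systemic and 1149 to 3000 in topical libraries. That sum was mostly Dnajb1 and Hspa1a, with means of 1899 and 1223 CPM over all libraries, and does not describe the other genes. By gene, the median log2 route difference was -0.0030 in controls and -0.17 in cKO, where 6 of 10 were lower. The dissociation response moved between routes in the same direction as the sum, as given beside Mt4.

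The genes whose levels were most like those of Mt1 and Mt2 were sought among 7831 genes averaging 5 CPM or more, by Pearson correlation with the mean log2(CPM + 1) of the pair over 20 libraries. The closest were Szrd1 (0.832), Tnfrsf4 (0.826), Actb (0.815), Ece1 (0.815) and Arf6 (0.815). After group means were subtracted they were Nfkbia (0.930), Nfkbiz (0.914) and Cebpd (0.875). Nfkbia and Cebpd are in the glucocorticoid-induced list, which holds 14 of the 12424 genes tested. The likeness of its other members was not listed. For Slc30a1, after group means were subtracted, they were Slco3a1 (0.884), AC110211.1 (0.875) and Dusp7 (0.859). For Mt4, a search added after its values were seen, they were Them5 (0.914), P3h4 (0.894), Gsta2 (0.888), Paqr5 (0.884) and Aldh3b2 (0.877). After group means were subtracted they were Them5 (0.912) and the 2 gene identifiers named Gcat (0.897 and 0.892). A likeness over 20 libraries is a description and carries no test.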

How the data were processed

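Bulk RNA of sorted keratinocytes was sequenced from SmartSeq II libraries of 20 mice. The deposited values are raw counts of reads per gene, made by the authors with STAR and featureCounts on GRCm38/mm10 per the submitters' processing notes; versions are not given in the sources used here. Raw counts were tested in R 4.3.3 with edgeR 4.0.16 (filterByExpr, minimum count 10; TMM; robust quasi-likelihood; all 20 libraries; Benjamini-Hochberg over 12424 genes; threshold 0.05). The depth of 11.6 to 50.1 M counts leaves Slc30a1 at 12 to 166 reads. Intervals on single counts cover counting error only. The labels make each library a separate mouse. Alternatives were DESeq2 1.42.0 size factors and Wald test, limma 3.58.1 voom, library totals alone, no filter, fewer libraries, replicate block, covariates and leaving out each library. The test was checked on simulated data. The authors' strand setting is not given in the sources used here, so antisense reads cannot be told apart. Gene names were matched to GENCODE M21 by ID: 25614 of 25719 IDs were found and 24950 had the same symbol.

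The members and gene lists were chosen with earlier results of these data known. Named were the 5 genes and Mt3, every called zinc transporter, glucocorticoid-induced and metal stress gene or, with no call, the 2 largest differences, and the genes most correlated with Mt1 and Mt2 (5 as measured, 3 after subtracting group means) and with Slc30a1 (3). Gene names of the Gm, Rik and -ps kinds were left out of that search. The satellite, mitochondrial, library-total and sex settings described in the text, other than sex as a planned covariate, and the likeness search for Mt4, were added after the data were seen.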

Additional observations from a re-analysis of the deposited data

Results flagged for a closer look

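The ratio of Mt1 to Mt2 counts in systemic control 1 stood apart from the other 4 systemic controls. It was 1.72 against 1.56 in the nearest library, and this gap made up 0.745 of the group's range, above the critical value of 0.71 for 5 samples. That library was also the highest of its group for Mt4 (782.8 CPM). Of 24 groups of 5 values examined in this way, chance flags about 1 in 20.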

How the results depend on the processing

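Outside the fits that leave out 1 library, 272 values of single genes were recomputed: 241 kept direction and side of the threshold, 30 turned sign and 1 passed the threshold; the cause was not tested. The genes called in the main tests numbered 16 (topical genotype), 235 (systemic genotype), 31 (difference between routes), 2277 (route in controls) and 1145 (route in cKO), in the order used below. Library totals alone gave 10, 51, 4, 959 and 540 calls, Mtf1 topical 0.031 and Mt1 0.012 for the difference between routes. They moved the median of all genes by -0.11 in the systemic comparison and -0.14 in the difference between routes. DESeq2's Wald test called 42, 563 and 315 genes in the first 3 comparisons. Voom called 26 (topical), 204 (difference) and 3493 (route in controls), with Mt1 at 0.16 for the difference, Mt4 at -0.20 for route in controls and Mtf1 at 0.037 for route in cKO. Fits of only the libraries compared gave 35 systemic calls and Slc30a1 at -0.84 (adjusted p = 0.0256, edgeR) for route in controls.

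With the replicate block there were 9 topical calls and 0 for the difference; Mt1, Mt2 and Mtf1 were -0.076, -0.096 and 0.0058 in the topical comparison, Mt1 0.16 for the difference and Mt4 -0.094 for route in controls. The 6 same-numbered pairs had deviations correlated from -0.23 to 0.40, 4 of them over 0.1, and 2 pairs were best matched by their own number, so the numbers were not taken to pair the mice. Sex as a covariate gave 49 calls for the difference and Mt1 at 0.025.

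Satellite-like signal over 50 CPM as a term left 0 systemic calls, 0 for the difference and 1 for route in controls by edgeR. The systemic values became -0.35 (Mt1), -0.23 (Mt2), -0.52 (Mt4) and -0.046 (Slc30a1), the differences between routes -0.37 (Mt2), 0.0097 (Mtf1) and -0.68 (Slc30a1), and the route values in controls 0.058 (Mt1), 0.17 (Mt2), -0.11 (Mtf1), 0.26 (Slc30a1), 1.10 (Fkbp5) and 0.15 (Ddit4). The log2 of that signal gave 0, 0 and 118 calls, systemic values of -0.16 (Mt1), -0.018 (Mt2) and -0.39 (Mt4), differences of -0.20 (Mt2) and 0.021 (Mtf1), and -0.090 for Mtf1 by route in controls. Mitochondrial percent gave 1320, 364 and 3496 calls, Mt1 at 0.14 for the difference and Mt4 at -0.021 for route in controls.

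Leaving out 1 library at a time, calls ranged from 10 to 19 (topical, lowest without topical control 1), 81 to 787 (systemic, lowest without systemic cKO 6, highest without systemic cKO 2), 16 to 470 (difference, lowest without systemic cKO 5, highest without systemic cKO 2), 1463 to 2524 (route in controls, lowest without systemic control 3) and 746 to 1218 (route in cKO, lowest without topical cKO 5). Topical values ranged from -0.071 to 0.28 (Mt1), -0.038 to 0.33 (Mt2) and -0.11 to 0.090 (Mtf1), and systemic values from -0.17 to 0.31 (Mt1), -0.059 to 0.42 (Mt2) and -0.038 to 0.70 (Mt4). Differences between routes ranged from -0.28 to 0.20 (Mt1), -0.20 to 0.28 (Mt2) and -0.025 to 0.53 (Slc30a1). Route values in cKO ranged from 1.21 to 1.54 (Mt4) and -0.16 to 0.059 (Mtf1), and in controls from -0.39 to 0.31 (Mt4) and -0.0074 to 0.20 (Mtf1). Mt3 ranged from -0.057 to 0.11 (topical) and -0.0040 to 0.10 (systemic). With 5 mice a group, the printed intervals of Mt1 and Mt2 show which folds remain possible and are not detection limits. Folds outside them could also have been missed, the smallest detectable change was not computed, and Slc30a1 is limited by its few reads.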

Other observations

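Mt1 and Mt2 were lower in male than in female mice, short of the threshold over all genes. Sex was read from Y-linked transcripts, and this comparison was added after the data were seen. Mt2 stood at 1233 ± 405 CPM in 10 males and 2199 ± 509 in 10 females (SD), a log2 difference of -0.82 with genotype and route in the model (SE 0.22, unadjusted p = 0.00103, adjusted p = 0.0727, edgeR). For Mt1 the levels were 2052 ± 747 and 3459 ± 918 CPM, a difference of -0.75 (SE 0.22, unadjusted p = 0.00295, adjusted p = 0.120). Of all genes, 0.853% were called by sex and 12.8% had an unadjusted p under 0.05.

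The difference ran from -0.89 to -0.73 for Mt2 and from -0.83 to -0.65 for Mt1 over the 20 fits that leave out 1 library, and the call for Mt2 was made in 1 of 20 (adjusted p from 0.0454 to 0.169). In controls the females lay above the males for Mt1 without overlap, at 4124 to 4460 against 1416 to 3391 CPM after topical and 3146 to 3563 against 585.5 to 1996 after systemic treatment. With 2 females and 3 males in each control group, 15.6% of all genes in the topical and 11% in the systemic controls lay apart in this direction, and 3.54% in both. In cKO the sexes overlapped after both treatments. Each cKO group held 3 females and 2 males, so sex was not balanced between the genotypes. Mt1 and Mt2 were called by genotype in 0 of 11 other settings by either route, sex as a covariate among them. Mt4 (0.25, adjusted p = 0.770), Mtf1 (-0.19, adjusted p = 0.583) and Slc30a1 (-0.073, adjusted p = 0.947) had smaller differences, none past the threshold.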
